A study of Mus musculus with 6 samples.

Results

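Genes of heme and iron handling, 10 in all, were described in macrophages sorted from the colonic lamina propria: Cd163, Slc48a1, Hmox1, Blvrb, Fth1, Ftl1, Slc40a1, Slc11a1, Trf and Tfrc. They were taken by gene symbol, and all 10 were found among the 25124 rows of the expression table and among the 12633 genes tested. Transgenic (TG) libraries came from 8-week-old C57BL/6 mice that overexpress E4BP4, a transcription factor encoded by Nfil3, in macrophages, and wild type (WT) libraries from C57BL/6 mice of that age, with 3 libraries in each group. Per the labels, mice of both groups drank 2.0% dextran sulfate sodium, which damages the gut lining and causes colitis, for 7 days. They then had 7 days of plain water and were killed on day 14, so the cells come from recovering tissue in both groups and no untreated mice were analysed here. The promoter that drives the transgene is not given in the sources used here. The genotype field spells the gene with another final digit in TG replicates 2 and 3 (E4BP5 and E4BP6), and the titles, which name E4BP4 throughout, were followed. Nothing says that each library is a different mouse, and the p-values therefore reflect library-to-library spread that may be technical.

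Macrophages clear dying red cells and free hemoglobin and return the iron to the body. Hemoglobin bound to haptoglobin is taken up through CD163, heme leaves the phagolysosome through the transporter encoded by Slc48a1, heme oxygenase 1 opens the ring to give biliverdin, carbon monoxide and iron, and biliverdin reductases make bilirubin. Iron is then stored in ferritin, a shell of heavy and light chains encoded by Fth1 and Ftl1, or exported by ferroportin, encoded by Slc40a1. Transferrin carries iron in plasma and is taken up through the transferrin receptor, and the Slc11a1 product moves metal ions out of phagosomes that hold microbes. In the inflamed gut these cells also withhold iron from bacteria.

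Several of these transcripts carry an iron responsive element, a hairpin that iron regulatory proteins bind when iron is low. Bound in a 5′ untranslated region it blocks translation, and bound in the 3′ untranslated region of Tfrc it protects the RNA from decay, so transcript levels of ferritin and ferroportin do not by themselves give protein levels. A search of the reference transcript of each of the 10 genes (GENCODE M21, build mm10) asked for a C, then 5 bases, the loop CAGTG followed by A, C or T, and 5 bases able to pair with the first 5, G-T pairs allowed. It found the hairpin in 4 of 10 genes, set against 222 of 21877 protein-coding genes (1.015%) with a match in any transcript. The pattern follows elements already known from such genes, so this count is not a result about the list. The matches are shown because they sort the genes by the kind of control their RNA is known for, as 30 bases of the RNA strand, written with T, with the 6 loop bases in capitals.
Fth1, 5′ untranslated region, chr19:9982731-9982760, plus strand: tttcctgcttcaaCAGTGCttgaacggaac
Ftl1, 5′ untranslated region, chr7:45459779-45459808, minus strand: tgtcttgcttcaaCAGTGTttgaacggaac
Slc40a1, 5′ untranslated region, chr1:45925465-45925494, minus strand: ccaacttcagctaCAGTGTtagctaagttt
Tfrc, 3′ untranslated region, chr16:32631218-32631247, plus strand: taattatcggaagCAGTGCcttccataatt
Tfrc, 3′ untranslated region, chr16:32631597-32631626, plus strand: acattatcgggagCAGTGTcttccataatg
Tfrc, 3′ untranslated region, chr16:32631662-32631691, plus strand: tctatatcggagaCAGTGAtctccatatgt
Tfrc, 3′ untranslated region, chr16:32631709-32631738, plus strand: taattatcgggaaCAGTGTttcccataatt
The transcript of Tfrc held 4 such matches and those of Fth1, Ftl1 and Slc40a1 held 1 each. No match was found in the transcripts of Cd163, Slc48a1, Hmox1, Blvrb, Slc11a1 or Trf, which says only that these letters are not there.

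Libraries held 13.97 to 15.06 M reads in genes. Nfil3 was at 133, 134 and 141 TPM (a transcript level scaled for length and depth) in TG libraries, against 117, 120 and 119 TPM in WT libraries, the mean being 1.14 times as high (limma adjusted p = 0.00261, log2 fold change 0.19 ± 0.029 SE). The authors' deposited table gives Nfil3 a smaller log2 fold change, 0.0927. Whether the Nfil3 row counts reads of the transgene is not given in the sources used here. Of the 12633 genes tested, 1100 were higher and 1666 lower in TG libraries, and with upper-quartile scaling 1388 and 1315, so that 51.4% of calls were higher in place of 39.8%. Leaving out TG replicate 2 or 3 gave 704 and 721 higher. Macrophage markers were abundant in both groups and none of the 12 was at 0, with Csf1r at 1094 and 983 TPM and C1qa at 3418 and 3232 TPM in TG and WT libraries. Of these 12 markers 4 were higher and 5 lower, and their summed level was 13721 to 13753 TPM in TG and 13618 to 13784 TPM in WT libraries. In bulk RNA, fewer cells of a type and less RNA per cell cannot be told apart.

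The 10 genes split evenly by genotype. In TG libraries 4 rose (Cd163, Hmox1, Blvrb and Trf) and 4 fell (Fth1, Ftl1, Tfrc and Slc11a1), while Slc40a1 and Slc48a1 did not pass the test (limma, adjusted p below 0.05 over all genes tested). All differences were modest: the largest ratio of means was 1.39, for Cd163, and 0 of 10 genes reached 1.5-fold on the log2(TPM + 1) scale, beside 5.56% of all genes tested. The background was 21.9% of genes tested called in either direction, 8.71% higher and 13.2% lower. It was 34.6% among the 5045 genes at or above the level of the lowest of the 10, Tfrc. The median log2 fold change of the 10 genes was -0.00, beside -0.01 over all genes tested. The count of genes that rose was 2 without TG replicate 2, when Hmox1 and Blvrb did not pass. The groups did not overlap for 8 of 10 genes, beside 39.3% of all genes tested: TG lay above WT for 4 (background 17.1%) and below WT for 4 (background 22.3%). Each of these 8 had p = 0.10 in an exact two-sided permutation of its TPM, which is as low as 3 libraries a group can reach. In the authors' deposited table the same 8 genes had the same sign, with adjusted p-values up to 0.0291 (Blvrb), and Slc40a1 and Slc48a1 had 0.480 and 0.985.

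**Figure D1:**
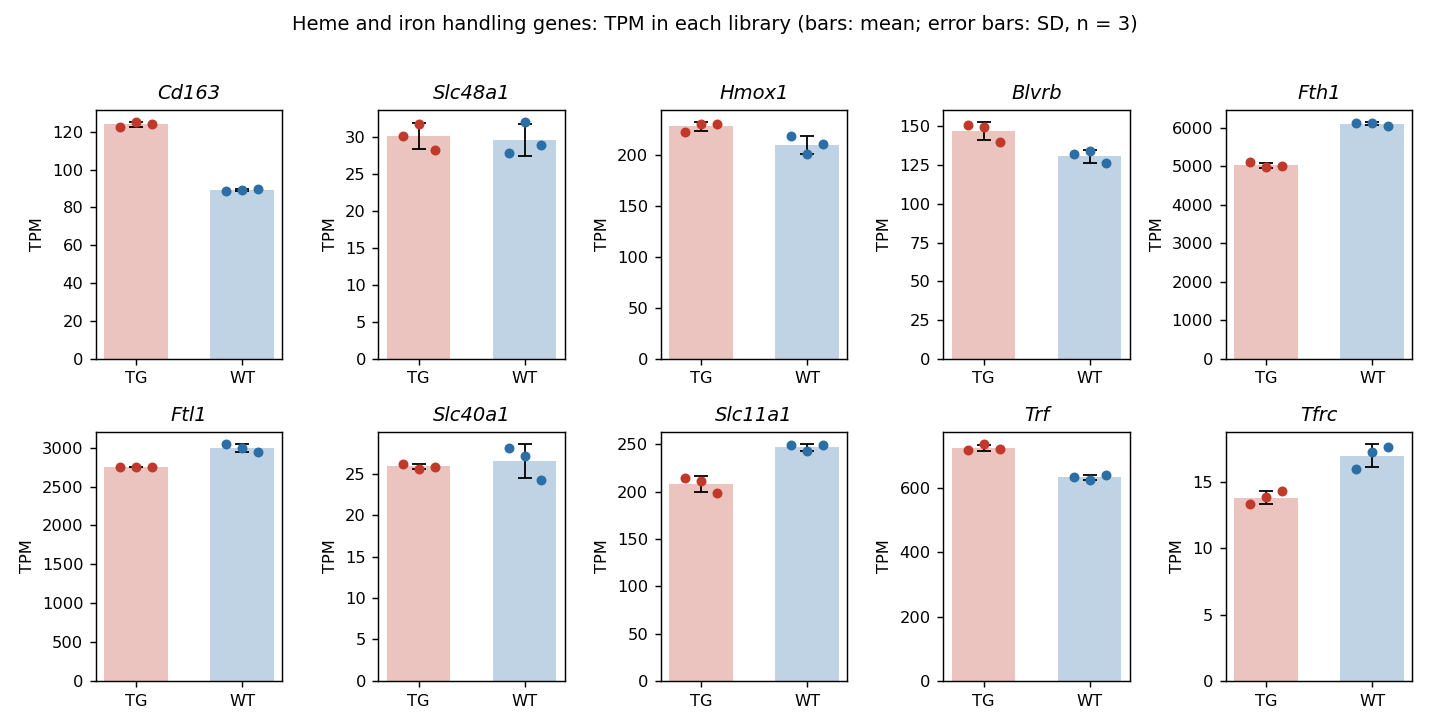
TPM of each gene in the 3 TG and 3 WT libraries; points are libraries, bars the mean and error bars the SD, and each vertical axis starts at 0. The TG libraries all lie above the WT libraries for Cd163, Hmox1, Blvrb and Trf, all below them for Fth1, Ftl1, Slc11a1 and Tfrc, and among them for Slc48a1 and Slc40a1.

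Their levels covered a wide range. Fth1 and Ftl1 were the 8th and 15th most abundant transcripts in every TG library and the 4th and 12th in every WT library. In TG libraries the order by TPM was Fth1, Ftl1, Trf, Hmox1, Slc11a1, Blvrb, Cd163, Slc48a1, Slc40a1 and Tfrc, and the ranges of all neighbours were apart. The WT order differed in one place, with Slc11a1 (243 to 249 TPM) above Hmox1 (201 to 219 TPM). In WT libraries the ranges of Slc48a1 and Slc40a1 overlapped.

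Cd163, the hemoglobin-haptoglobin scavenger receptor (chromosome 6 at 124304651 to 124330527, plus strand, mm10), was at 123, 125 and 124 TPM in TG libraries, against 88.6, 89.3 and 89.7 TPM in WT libraries. The TG libraries lay far above the WT ones and each group was tight, with coefficients of variation of 0.969% and 0.634%. Both are below the counting error per library, 1.19% in TG and 1.43% in WT libraries. Its log2 fold change was 0.47 ± 0.024 SE (limma adjusted p = 1.33e-05), on 21064 reads in TG and 14737 in WT libraries. It stayed called under all 14 alternatives. Other markers of resident macrophages moved less or the other way: Adgre1, which encodes F4/80, rose by 0.24, Mrc1, the mannose receptor gene, differed by 0.01 (limma adjusted p = 0.567) and Mertk, a receptor for dying cells, fell by 0.23 on the log2 scale. Per library the Cd163 to Adgre1 ratio was 0.290, 0.292 and 0.290 in TG libraries and 0.244, 0.248 and 0.250 in WT libraries (exact two-sided permutation p = 0.10, the smallest possible). The Cd163 difference was thus larger than that of Adgre1 in these libraries.

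Slc48a1, which encodes the heme transporter of the phagolysosome (chromosome 15 at 97784365 to 97792692, plus strand, mm10), was at 30.1, 31.8 and 28.2 TPM in TG libraries, against 27.8, 31.997 and 28.9 TPM in WT libraries. The TG libraries fell inside the WT range. The difference was 0.02 on the log2 scale, with a 95% interval of -0.13 to 0.17 (limma adjusted p = 0.837), and its sign turned without TG replicate 2 or WT replicate 1.

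Hmox1, encoding heme oxygenase 1, the inducible enzyme that opens the heme ring (chromosome 8 at 75093618 to 75100593, plus strand, mm10), was at 223, 231 and 231 TPM in TG libraries, against 219, 201 and 211 TPM in WT libraries. The lowest TG library stood just above the highest WT library, and WT replicate 2 was the lowest of all. The log2 fold change was 0.12 ± 0.033 SE, an increase of 8.59% (limma adjusted p = 0.0366). This call was lost under 7 of 14 alternatives. It was lost when TG replicate 2 or 3 was left out (adjusted p = 0.109 and 0.108), and when WT replicate 2 or 3 was left out (0.0839 and 0.0802). Hmox2, the constitutive heme oxygenase, was at 88.7 ± 3.95 TPM in TG and 80.6 ± 4.79 TPM in WT libraries (SD, n = 3 each; limma adjusted p = 0.0961). The Hmox1 to Hmox2 ratio, 2.58 ± 0.161 in TG and 2.62 ± 0.251 in WT libraries (SD, n = 3 each), overlapped between groups (exact two-sided permutation p = 0.80).

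The genes of the biliverdin reductases, Blvrb and Blvra, moved in opposite directions. Blvrb, encoding biliverdin reductase B, which also acts as a flavin reductase (chromosome 7 at 27447978 to 27465981, plus strand, mm10), was at 151, 150 and 140 TPM in TG libraries, against 132, 134 and 126 TPM in WT libraries. Groups did not overlap, and TG replicate 3 was the nearest to WT. Blvrb had a log2 fold change of 0.17 ± 0.037 SE (limma adjusted p = 0.0152), and the call was lost without TG replicate 1 or 2 (adjusted p = 0.05015 and 0.0574). Blvra, the reductase for the main bile pigment of adults, fell to 48.3 ± 0.707 TPM in TG libraries, against 58.0 ± 0.275 TPM in WT libraries (SD, n = 3 each; limma adjusted p = 0.000829). The Blvrb to Blvra ratio was therefore 3.13, 3.05 and 2.94 in TG libraries and 2.27, 2.32 and 2.17 in WT libraries (exact two-sided permutation p = 0.10, the smallest possible).

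**Figure D2:**
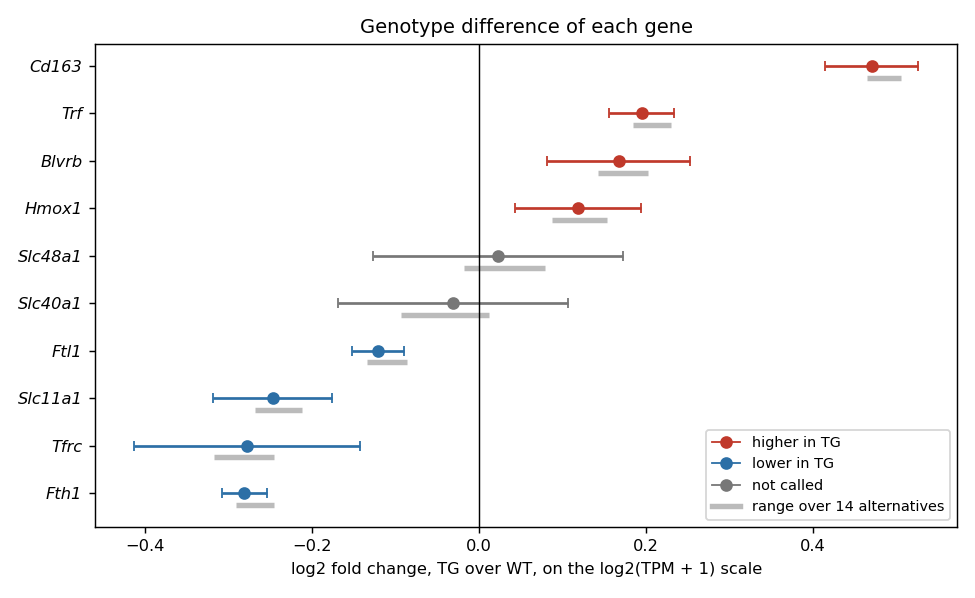
Log2 fold change of each gene, TG over WT, with its 95% interval from limma (points and bars), and below it the range of the fold change over the 14 alternatives (grey). Cd163 stands at 0.47, apart from the other 9 genes, which lie between -0.28 and 0.20, and the intervals of Slc48a1 and Slc40a1 include 0.

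Both ferritin chains fell, the heavy chain more than the light chain. Fth1, the ferroxidase chain (chromosome 19 at 9982646 to 9985111, plus strand, mm10), was at 5095, 4969 and 4999 TPM in TG libraries, against 6129, 6122 and 6048 TPM in WT libraries. All TG libraries lay below all WT libraries, with a gap wide against the spread within each group. Its log2 fold change was -0.28 ± 0.012 SE, a difference of -17.7% (limma adjusted p = 3.84e-06), and it stayed called under all 14 alternatives.

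Ftl1, the light chain, which helps to nucleate the iron core (chromosome 7 at 45457944 to 45459886, minus strand, mm10), was at 2757, 2755 and 2752 TPM in TG libraries, against 3044, 3001 and 2943 TPM in WT libraries. The TG libraries were nearly equal, and all lay below the WT ones. The log2 fold change was -0.12 ± 0.013 SE (limma adjusted p = 0.000594). The authors' deposited table gives log2 fold changes of -0.30 for Fth1, on another transcript row, and -0.17 for Ftl1. Near-identical processed copies of ferritin genes lie elsewhere in the mouse genome, and how reads shared with them were counted is not given in the sources used here, so part of either level is uncertain.

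Within a library the Fth1 to Ftl1 ratio was 1.85, 1.80 and 1.82 in TG libraries, against 2.01, 2.04 and 2.06 in WT libraries, with no overlap (exact two-sided permutation p = 0.10, the smallest possible). Together both chains took 1.42% to 1.44% of the TPM in TG libraries and 1.65% to 1.68% in WT libraries. Ferritin loading and turnover genes showed little of this. Of 5 tested genes in that list 0 rose and 1 fell: Pcbp1, which encodes a chaperone that delivers iron to ferritin, was at 206 ± 6.22 TPM in TG and 239 ± 4.87 TPM in WT libraries (SD, n = 3 each; limma adjusted p = 0.00130). Its relative Pcbp2 was at 145 and 143 TPM (limma adjusted p = 0.689). Ncoa4, the receptor that takes ferritin to the lysosome, was at 11.4 ± 1.37 TPM in TG and 10.9 ± 1.07 TPM in WT libraries (SD, n = 3 each; limma adjusted p = 0.732). Ftmt, the mitochondrial ferritin gene, and Fthl17a were listed at 0 in all 6 libraries.

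**Figure D3:**
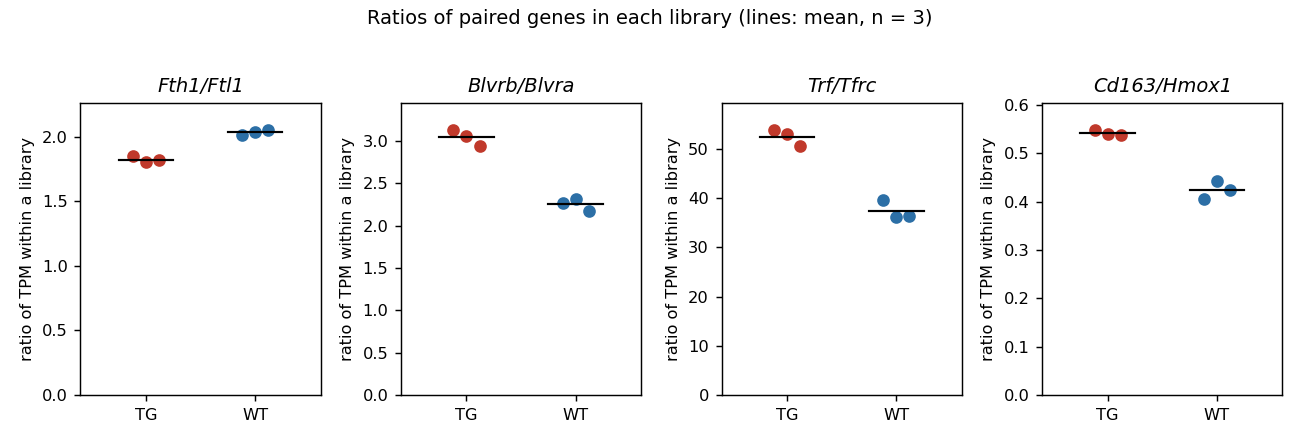
Ratio of the TPM of paired genes within each library, 3 TG and 3 WT, with the mean as a line and axes that start at 0. The Fth1 to Ftl1 ratio is lower in TG libraries (1.80 to 1.85 against 2.01 to 2.06), while the Blvrb to Blvra, Trf to Tfrc and Cd163 to Hmox1 ratios are higher.

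The exporter gene showed no difference beyond the spread between libraries. Slc40a1, which encodes ferroportin, the only known iron exporter of mammalian cells (chromosome 1 at 45908070 to 45925594, minus strand, mm10), was at 26.2, 25.6 and 25.8 TPM in TG libraries, against 28.1, 27.2 and 24.2 TPM in WT libraries. The TG libraries fell inside the wider WT range. The difference was -0.03 on the log2 scale, with a 95% interval of -0.17 to 0.11 (limma adjusted p = 0.758), and its sign turned without WT replicate 1 and with upper-quartile scaling. The ferroxidases that load iron onto transferrin after export moved apart. Cp, the ceruloplasmin gene, rose to 25.1 ± 0.532 TPM in TG libraries, against 17.9 ± 0.569 TPM in WT libraries (SD, n = 3 each; limma adjusted p = 0.000348). Heph, encoding hephaestin, the ferroxidase known from enterocytes, fell to 0.775 ± 0.0683 TPM in TG libraries, against 2.07 ± 0.232 TPM in WT libraries (SD, n = 3 each; limma adjusted p = 0.00365). Heph is a low gene that reached the mean of 1 TPM needed for testing only in WT libraries, on 139 reads in TG and 361 in WT libraries. Of 10 tested epithelial markers 0 rose and 7 fell, and none was at 0. Their summed level was 476 to 487 TPM in TG and 918 to 923 TPM in WT libraries, and Car1 alone was at 164 and 497 TPM. Epcam fell less, to 36.6 TPM in TG against 42.1 TPM in WT libraries (limma adjusted p = 0.0310). Muc2 (36.1 and 35.9 TPM), Krt18 (19.5 and 16.8 TPM) and Cdh1 (10.9 and 12.8 TPM) did not pass the test. The part of epithelial RNA in the Heph result was not tested.

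Slc11a1, the phagosomal metal ion transporter known as NRAMP1 (chromosome 1 at 74375203 to 74386051, plus strand, mm10), was at 214, 211 and 199 TPM in TG libraries, against 249, 243 and 249 TPM in WT libraries. All TG libraries were below all WT libraries, with TG replicate 3 the lowest. Slc11a1 had a log2 fold change of -0.25 ± 0.031 SE (limma adjusted p = 0.00109), and it stayed called under all 14 alternatives. Its relative Slc11a2, which encodes the transporter of endosomes and enterocytes, was at 21.6 ± 1.64 TPM in TG and 23.6 ± 1.44 TPM in WT libraries (SD, n = 3 each; limma adjusted p = 0.236). Slc11a1 is also expressed by neutrophils, and markers of that cell type were lower in the same libraries. Of 9 tested neutrophil markers 0 rose and 6 fell, and the summed level of all 13 was 431 to 484 TPM in TG and 1013 to 1042 TPM in WT libraries. S100a8 and S100a9, which encode calprotectin, were at 154 and 187 TPM in TG libraries and at 409 and 439 TPM in WT libraries, and the granule gene Ngp was at 2.81 TPM in TG and 8.74 TPM in WT libraries. The surface markers Cxcr2 (2.61 TPM in TG and 4.39 TPM in WT libraries, limma adjusted p = 0.00495) and Ly6g (2.24 and 3.48 TPM, 0.0325) were lower too. Csf3r, Cd177 and Padi4 did not pass the test. Csf3r was at 56.8 TPM in TG and 58.9 TPM in WT libraries (limma adjusted p = 0.428), and Cd177 at 14.4 and 13.2 TPM (0.323). Camp, below the level for testing, was higher in TG libraries without overlap, on 11 reads in TG and 3 in WT libraries. Mpo and Elane were at or near 0 in both groups. The part of these cells in the Slc11a1 and ferritin differences was not tested.

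Transferrin and its receptor moved in opposite directions. Trf, the transferrin gene (chromosome 9 at 103208876 to 103230286, minus strand, mm10), was at 718, 737 and 722 TPM in TG libraries, against 635, 625 and 641 TPM in WT libraries. The groups were well apart, and Trf was the third most abundant of the 10 genes in both. Its log2 fold change was 0.20 ± 0.017 SE, an increase of 14.5% (limma adjusted p = 0.000166), and it stayed called under all 14 alternatives. Plasma transferrin is made mainly by hepatocytes. Alb stood at 0.0797 and 0 TPM, Fgb, Serpina1a and Apoc3 were listed at 0 in all 6 libraries, and the summed level of the 7 hepatocyte markers was 1.76 to 2.98 TPM in TG and 0.482 to 1.15 TPM in WT libraries. The only tested marker of the 7, Ttr, was at 2.51, 2.75 and 1.61 TPM in TG libraries and 0.736, 0.129 and 0.590 TPM in WT libraries (limma adjusted p = 0.00718), and the groups did not overlap. Ttr reached the mean of 1 TPM needed for testing only in TG libraries, and rested on 107 reads in TG and 22 in WT libraries. The part of hepatocyte RNA in the Trf result was not tested.

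Tfrc, the transferrin receptor gene (chromosome 16 at 32608896 to 32632794, plus strand, mm10), was at 13.3, 13.9 and 14.3 TPM in TG libraries, against 16.0, 17.3 and 17.7 TPM in WT libraries. Every TG library lay below every WT library. Tfrc had a log2 fold change of -0.28 ± 0.058 SE (limma adjusted p = 0.0124), on 2620 and 3130 reads, the fewest of the genes called. It stayed called under all 14 alternatives. The Trf to Tfrc ratio was 53.9, 53.1 and 50.6 in TG libraries and 39.7, 36.2 and 36.3 in WT libraries (exact two-sided permutation p = 0.10, the smallest possible). Dividing cells carry much transferrin receptor, and of 12 proliferation markers 0 rose and 1 fell, with a median log2 fold change of -0.14. The marker that fell, Birc5, lost its call in 5 of the 6 leave-one-out fits, and Mki67 was at 14.9 ± 0.194 TPM in TG and 16.2 ± 0.630 TPM in WT libraries (SD, n = 3 each; limma adjusted p = 0.162). Their part in the Tfrc result was not tested.

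Around these genes, 59 others of 6 heme and iron lists were tested, of which 3 rose (5.08%) and 18 fell (30.5%), beside 8.71% and 13.2% of all genes tested. A further 22 genes of 2 broader lists, of transcription factors and of NRF2 targets outside iron handling, gave 0 higher and 13 lower. In the list of heme uptake, transport and breakdown 0 of 10 rose and 4 fell (median log2 fold change -0.21). Hp, encoding haptoglobin, the plasma ligand that brings hemoglobin to CD163, had the largest fall of that list, to 44.8, 43.5 and 46.4 TPM in TG libraries, against 193, 179 and 198 TPM in WT libraries (limma adjusted p = 1.35e-07). Lrp1, the receptor for heme bound to hemopexin, fell to 81.0 ± 0.597 TPM in TG libraries, against 98.4 ± 0.727 TPM in WT libraries (SD, n = 3 each; limma adjusted p = 0.000209). Flvcr1, a plasma membrane transporter first described as a heme exporter, was at 11.3 and 12.9 TPM (limma adjusted p = 0.131). Pgrmc2, a heme chaperone gene, fell by 0.28 on the log2 scale, a call lost in 5 of the 6 leave-one-out fits. In heme synthesis 0 of 10 rose and 2 fell (median -0.05). Of these, Alas1, the rate-limiting enzyme of non-erythroid cells, was at 41.0 ± 1.19 TPM in TG and 48.7 ± 2.70 TPM in WT libraries (SD, n = 3 each; limma adjusted p = 0.0092).

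In the list of iron import and oxidation state 1 of 10 rose, Cp, and 4 fell (median -0.23). Slc39a14, which imports iron not bound to transferrin, fell to 8.40 ± 0.438 TPM in TG libraries, against 14.3 ± 0.238 TPM in WT libraries (SD, n = 3 each; limma adjusted p = 0.000162). Lcn2, the lipocalin that takes iron-laden siderophores from bacteria, fell to 19.5, 16.9 and 14.8 TPM in TG libraries, against 122, 118 and 112 TPM in WT libraries, a log2 fold change of -2.72 (limma adjusted p = 1.12e-06). Hp and Lcn2 are also known from neutrophils and Lcn2 from epithelium, and most tested markers of both cell types were lower in TG libraries. The part of these cell types in the Hp and Lcn2 falls was not tested. Of the list of iron sensing and the hepcidin axis 2 of 9 rose, and neither is known first for iron: B2m, the light chain of MHC class I and of HFE, and Zfp36, which encodes the RNA-decay protein tristetraprolin, rose by 0.31 and 0.26 on the log2 scale. The iron regulatory proteins, which bind the hairpins printed above, showed almost equal transcript levels. Aco1 was at 23.8 and 23.9 TPM (limma adjusted p = 0.966) and Ireb2 at 13.02 and 13.19 TPM (0.886) in TG and WT libraries. Fbxl5, the ubiquitin ligase subunit that removes the second of these proteins when iron is plentiful, fell by 0.19 on the log2 scale, a call lost in 4 of the 6 leave-one-out fits. Hamp, the gene of the iron hormone hepcidin, rested on 9 reads in TG and 27 in WT libraries, at 0.760, 0.609 and 0.375 TPM in TG and 2.23, 0.390 and 2.78 TPM in WT libraries (limma adjusted p = 0.198, and 0.00675 without WT replicate 2).

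Genes of mitochondrial iron and iron-sulfur clusters gave 0 of 15 higher and 6 lower (median -0.16). Glrx5, which passes on iron-sulfur clusters, fell to 29.6 ± 2.06 TPM in TG libraries, against 41.5 ± 2.47 TPM in WT libraries (SD, n = 3 each; limma adjusted p = 0.0015). Slc25a28, a mitochondrial iron importer, and Hspa9, the chaperone that helps to hand clusters on, fell by 0.20 and 0.16 on the log2 scale. Among transcription factors of the heme and oxidative response 0 of 11 rose and 6 fell (median -0.17). Nfe2l2, encoding NRF2, which drives Hmox1 and both ferritin genes, was at 288 ± 3.47 TPM in TG and 310 ± 4.61 TPM in WT libraries (SD, n = 3 each; limma adjusted p = 0.00842), a call lost with upper-quartile scaling (0.0556) and with no trend (0.121). Bach1, the heme-sensing repressor of the same genes, was at 57.8 and 59.9 TPM (limma adjusted p = 0.344), and Spic, the factor known from splenic iron-recycling macrophages, at 14.7 and 15.8 TPM (0.426) in TG and WT libraries. Epas1, encoding the hypoxia factor HIF-2 alpha, fell by 0.79 and Nr1h3, encoding the oxysterol receptor LXR alpha, by 0.51 on the log2 scale. Of 11 NRF2 targets outside iron handling 0 rose and 7 fell (median -0.30). Slc7a11, the cystine importer gene, fell to 4.801 ± 0.160 TPM in TG libraries, against 10.6 ± 0.451 TPM in WT libraries, and Gsr, encoding glutathione reductase, to 32.8 ± 1.61 TPM, against 59.9 ± 0.496 TPM (SD, n = 3 each). Txnrd1 and Srxn1 fell by 0.54 and 0.30. Fth1 and Ftl1 moved the same way as most of these targets, and Hmox1 and Blvrb the other way. The part of NRF2 in any of these differences was not tested.

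**Figure D4:**
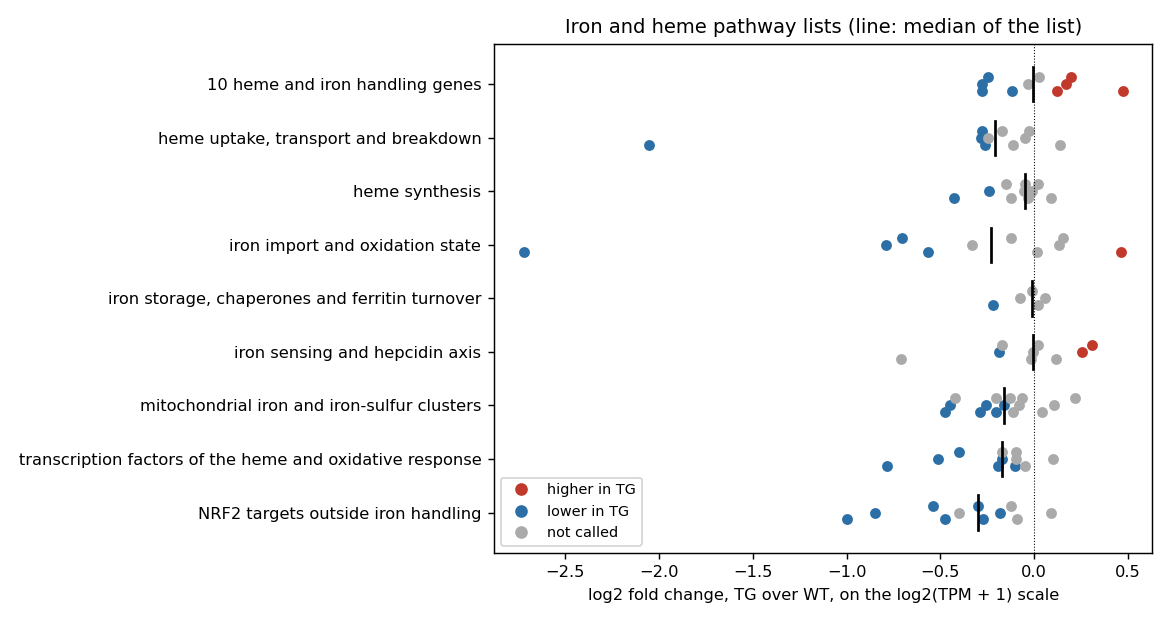
Log2 fold change, TG over WT, of every tested gene of the 10 and of 8 heme, iron and stress-response lists; 1 point is 1 gene, coloured by its call, and the black line is the median of the list. The points at -2.72 and -2.05 are Lcn2 and Hp, and the NRF2 targets have the lowest median, -0.30.

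Hemoglobin transcripts, which mark red cells, were higher in TG libraries. With 2 groups of libraries, all genes that rose are high in the same libraries, so this does not link them to any of the 10 genes. Of 6 erythroid markers tested 5 rose and 0 fell. Summed over all marker rows, some of which share a locus, the level was 73.0 to 82.3 TPM in TG and 34.2 to 46.1 TPM in WT libraries. Hbb-bs was at 18.8 ± 2.14 TPM in TG and 8.33 ± 1.39 TPM in WT libraries (SD, n = 3 each; limma adjusted p = 0.000555), on 199 reads in WT libraries. The 5 are hemoglobin rows, and they are not separate rises. Hbb-bs and Hbb-b1 cover almost the same interval of chromosome 7 (starts 103826523 and 103826532), with 462 and 459 reads in TG libraries. Hba-a1 and Hba-a2 do so on chromosome 11 (starts 32283672 and 32283675), with 299 and 281 reads in TG libraries. The sum counts these loci repeatedly in both groups, so it overstates the hemoglobin level. The other tested erythroid marker, Epor, the erythropoietin receptor gene, was at 7.76 TPM in TG and 6.44 TPM in WT libraries (limma adjusted p = 0.145). Alas2, the erythroid enzyme of heme synthesis, was at 0.634, 0.635 and 1.02 TPM in TG libraries and 0.593, 0.529 and 0.415 TPM in WT libraries, without overlap and below the level for testing. Slc4a1 and Klf1 were near 0 in both groups, and Epb42 was listed at 0 in all 6 libraries. What part red cell RNA has in the differences of the 10 genes was not tested. Lymphocyte markers were higher in TG libraries as well (4 of 10 rose and 0 fell, summed level 336 to 361 TPM in TG and 300 to 308 TPM in WT libraries), and of 11 fibroblast and endothelial markers 0 rose and 8 fell (136 to 145 TPM in TG and 198 to 202 TPM in WT libraries). Among these, Klrk1 (2.38 TPM in TG and 0.797 TPM in WT libraries) reached the mean of 1 TPM needed for testing only in TG libraries. Kdr (0.592 and 1.74 TPM) reached it only in WT libraries.

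Promoter windows of 250 bases before to 50 after a start site (RefSeq, GRCm38.p6) were listed for 6 of the 10 genes, Cd163, Blvrb, Fth1, Ftl1, Tfrc and Slc11a1, in 9 windows. None of the 9 held TTANGTAA, a motif of the family of E4BP4, or TGACNNNGC, the core of the antioxidant response element, on either strand, while 2.32% and 12.4% of all 32851 windows did. Hmox1, Slc40a1, Slc48a1 and Trf were not searched. The absence of these letters from these windows says nothing of binding elsewhere.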

How the data were processed

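Per the submitters' processing notes, bcl2fastq, STAR, HOMER 4.11.1 and DESeq2 were used on build mm10, in an order and with settings not stated. Per the labels, polyadenylated RNA of sorted cells was sequenced, and the kit is not described as keeping strand. The authors deposited TPM for 25124 RefSeq rows with exon lengths (column sums 543612 to 545319). A second table the authors deposited (24421 rows) gives log2 expression, a log2 fold change and an adjusted p-value. Its length column is the gene span, and its fold change had the sign of TG minus WT in 100% of 5099 rows with adjusted p below 0.05.

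limma-trend (limma 3.58.1, R 4.3.3) was fitted to log2(TPM + 1) in all 6 libraries with genotype as the only term, for genes averaging 1 TPM or more in either group. Fold changes on that scale understate low genes. Calls used Benjamini-Hochberg adjusted p below 0.05 over all genes tested. Multiplying TPM by exon length gave whole reads in 100% of values of up to 1000 reads (tolerance 0.1), 79.5% to 81.3% of the totals in the file headers. The limit set by 0 reads is 3 reads, or 0.113 to 0.122 TPM at 2000 bases, for counting error only. Chi-square divided by its degrees of freedom was 2.06 to 2.75 for pairs of libraries within groups and 15.0 to 15.9 across them, so none was counted as a duplicate. The fit was tested on simulated data.

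The 10 genes and the lists were chosen with earlier results of these data known. Named genes are the 10, the 4 or fewer tested genes of lowest p in a list, Nfil3 and 14 others fixed by name. Mertk, Mrc1, C1qa, Csf3r, Cxcr2, Ly6g, Cd177, Padi4, Camp, Epcam, Muc2, Krt18, Cdh1, Epor, Alas2, Mpo, Elane, Mki67, Alb, Fgb, Serpina1a, Apoc3, Slc4a1, Klf1, Epb42, Kdr, Ftmt and Fthl17a were named after their values were seen. Alternatives were a pseudocount of 0.1, no filter, a filter of 5 TPM, upper-quartile and equal-sum scaling, limma-voom on the recovered reads, limma with no trend, a replicate block and leaving out each library. Hairpins came from GENCODE M21 transcripts on mm10 and promoter windows from RefSeq.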

Additional observations from a re-analysis of the deposited data

How the results depend on the processing

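Cd163, Fth1, Trf, Slc11a1 and Tfrc kept their direction and their call under all 14 alternatives. Hmox1 (0.12 on the log2 scale) lost its limma call with no filter (adjusted p = 0.0688), no trend (0.147) or the replicate block (0.0686), and ranged from 0.0877 to 0.147 over the leave-one-out fits. Blvrb (0.17) and Ftl1 (-0.12) lost theirs with no trend (limma adjusted p = 0.0740 and 0.0836), and Blvrb ranged from 0.14 to 0.20 over the leave-one-out fits. Of the 10 genes, 2 rose with no trend and 2 to 4 over the leave-one-out fits. Slc40a1 was 0.0030 with upper-quartile scaling and -0.0926 to 0.0124 over the leave-one-out fits, and Slc48a1 -0.0182 to 0.079. Of all genes tested, 704 to 883 rose over the leave-one-out fits, with fewest without TG replicate 2. Of the 81 genes of the 8 heme, iron and stress-response lists 5 rose with upper-quartile scaling and 5 with limma-voom. Among genes not called, Aco1 was 0.0296 with upper-quartile scaling, 0.0029 with limma-voom and -0.041 to 0.0181 over the leave-one-out fits, Ireb2 0.0152 with upper-quartile scaling and -0.0583 to 0.0256, and Ncoa4 -0.0282 to 0.128. The cause of these shifts was not tested. Same-numbered libraries showed no sign of pairing (correlation of deviations -0.013, -0.043 and 0.032), which 3 libraries a group cannot exclude. The replicate block gave 922 genes higher and 1457 lower. Counting error per library was 2.98% to 3.38% for Tfrc, Slc40a1 and Slc48a1. The spread between libraries (coefficient of variation) was 5.85% in TG and 7.31% in WT libraries for Slc48a1, and 1.14% and 7.76% for Slc40a1. For these genes counting error is below that spread except for Slc40a1 in TG libraries. The spread was also below counting error for Cd163 in both groups and for Ftl1 in TG libraries (0.0848% against 0.540%).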
